A study of Homo sapiens with 30 samples.

Results

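TFAP2A, TFAP2B and TFAP2C encode the AP-2 alpha, AP-2 beta and AP-2 gamma transcription factors, and 8 of the 54675 probe sets on the arrays used here named exactly 1 of these symbols. They are 3 of the 19775 genes that had a probe set of their own. TFAP2A had 3 of them, TFAP2B 3 and TFAP2C 2. The genes were picked for the steady deep fall of TFAP2B, so what MLN4924 did to TFAP2B is given as a description with no test, and its course in the vehicle arrays, which are the other side of that comparison, is treated in the same way. TFAP2A and TFAP2C were tested.

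The study followed A375, an established human melanoma cell line, after addition of MLN4924, a small-molecule inhibitor of the NEDD8-activating enzyme that starts the attachment of NEDD8 to cullin ubiquitin ligases. The 5 treated groups received 650 nM MLN4924 for 1, 2, 4, 8 or 24 h, and the 5 control groups received 0.065% DMSO for the same times. Each of the 10 groups had 3 Affymetrix expression arrays, 30 in all. A single line in culture was used, and nothing in the labels tells whether a group's arrays stem from different cultures. The p-values can therefore speak only of the spread from array to array, part or all of which may be technical.

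AP-2 proteins bind GC-rich DNA as homodimers or heterodimers through a basic domain and a helix-span-helix domain, and their activation domain recruits co-activators of the CITED family together with CBP or p300. In the embryo TFAP2A and TFAP2B act in the neural crest, the migratory population from which melanocytes arise, and TFAP2A stays active in the melanocyte lineage, where it works with MITF. TFAP2C is best known from trophoblast, germ cells and mammary epithelium, and it can replace or pair with the other family members.

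The sequences just before the annotated starts are shown for TFAP2A and TFAP2B, which moved in opposite directions with MLN4924. Their start regions can thus be set side by side. TFAP2C, which also fell, had no window in the promoter set used. The sequences shown are the 250 bases before the start in RefSeq annotation of GRCh38.p14, written 5′ to 3′ on the strand of the gene. TFAP2A (minus strand) lies at chr6:10419660-10419909 and TFAP2B (plus strand) at chr6:50818621-50818870. Capitals mark the only match to any of the motifs searched.
TFAP2A: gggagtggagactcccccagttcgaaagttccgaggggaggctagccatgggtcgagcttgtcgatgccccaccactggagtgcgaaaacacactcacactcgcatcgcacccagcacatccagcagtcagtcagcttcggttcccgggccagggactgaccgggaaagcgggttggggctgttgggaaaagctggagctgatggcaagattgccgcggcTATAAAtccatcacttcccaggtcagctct
TFAP2B: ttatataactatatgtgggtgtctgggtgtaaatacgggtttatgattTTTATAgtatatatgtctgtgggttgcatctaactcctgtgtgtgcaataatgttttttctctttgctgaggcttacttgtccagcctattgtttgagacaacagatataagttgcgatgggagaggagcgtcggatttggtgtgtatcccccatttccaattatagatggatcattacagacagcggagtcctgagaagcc

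Both windows were searched on both strands for GCCNNNGGC (the AP-2 palindrome), TATAAA (the TATA box), TGANTCA (AP-1), CATGTG (the M-box of MITF), CACGTG (the canonical E-box) and GGGCGG (the GC box). Of 35116 promoter windows of the same length, 19.8% held GCCNNNGGC, 10.7% TATAAA, 6.57% TGANTCA, 9.42% CATGTG, 6.34% CACGTG and 42.6% GGGCGG. TFAP2A had TATAAA on its own strand, 30 bases before the start. TFAP2B had it on the other strand, 202 bases before the start. The GC content was 59.6% in the TFAP2A window and 40.8% in the TFAP2B window, against a median of 58.0% over all windows. A second annotated start of TFAP2A, with its window at chr6:10412392-10412641, had a GC content of 71.2% and none of these motifs. None of the 3 windows held GCCNNNGGC.

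All values are array signals, scaled by the authors and then quantile normalized here, and the median of all normalized values was 36.6. The signals had no detection calls, so this median serves as a mark of dim probe sets. The deposited arrays had medians of 32.6 to 44.0 and means of 225 to 261, and the ratio of 3′ to 5′ ACTB signal, a measure of RNA integrity and labelling, ran from 1.14 to 1.74. Log2 changes are differences of log2(normalized signal + 32), a scale that understates changes of dim probe sets. A probe set was called at an adjusted p under 0.05 (limma, Benjamini-Hochberg over 54613 probe sets, two-sided). In bulk RNA, fewer cells of a type and less RNA per cell cannot be told apart.

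TFAP2B fell from a gene well above the middle of the table to one near it. On the probe set 214451_at, the brightest for the gene, the DMSO arrays gave signals of 594, 551 and 556 at 1 h and of 662, 729.5 and 746 at 2 h. They gave 659.9, 750.0 and 728 at 4 h and 804, 689 and 745 at 8 h. At 24 h they gave 1885, 1848 and 1898, so the 1 h arrays lay under those of every later time, the arrays of 2 to 8 h shared one band, and those of 24 h stood far above it with little spread.

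The MLN4924 arrays gave 570.5, 586 and 533 at 1 h and 519, 502 and 590.1 at 2 h. They then gave 225, 285 and 257 at 4 h and 129.9, 130.3 and 86.4 at 8 h. At 24 h they gave 59.7, 47.3 and 48.7. The treated and vehicle arrays overlapped at 1 h and at no later time (groups were apart for 11.9% of all probe sets at 2 h, 18% at 4 h, 23.7% at 8 h and 36.8% at 24 h), and the treated arrays of 4, 8 and 24 h did not overlap each other.

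**Figure D1:**
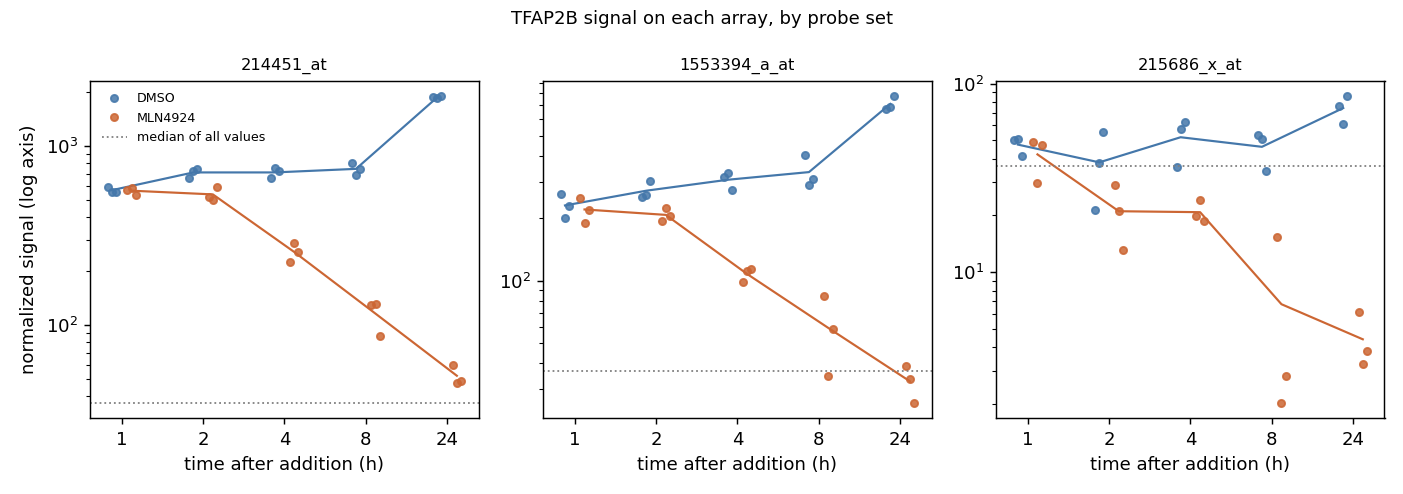
Normalized signal (log axis, its range differing between panels) of the 3 TFAP2B probe sets on each array by hours after addition, DMSO in blue and MLN4924 in orange, with lines through the group means and a dotted line at the median of all values, 36.6. On 214451_at the DMSO arrays reached 1848 to 1898 at 24 h while the MLN4924 arrays were at 47.3 to 59.7.

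The mean signal of 214451_at under MLN4924 was 99.3% of that under DMSO at 1 h, 75.3% at 2 h, 35.9% at 4 h, 15.5% at 8 h and 2.77% at 24 h. On the log2 scale the difference was -0.01 at 1 h, -0.39 at 2 h, -1.37 at 4 h, -2.41 at 8 h and -4.51 at 24 h, each with an SE of 0.10 (n = 3 per group). Ordered by fall among the 54613 probe sets, 214451_at stood at place 25141 at 1 h, 1056 at 2 h, 12 at 4 h, 2 at 8 h and 1 at 24 h. These are the values the genes were picked on, and nothing is read from them beyond their size.

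The size of the difference at 24 h had contributions from both sides. Between 1 and 24 h the DMSO mean went from 567 ± 23.7 to 1877 ± 26.1 (SD, n = 3), a log2 difference of 1.67 (SE 0.10). Over the same time the MLN4924 mean went from 563 ± 27.2 to 51.9 ± 6.81, a log2 difference of -2.83 (SE 0.10). The higher vehicle level made up 37.2% of the growth of the treated-to-vehicle difference from 1 to 24 h, and the lower treated level 62.8%. Both shares are on this log2 scale, which understates falls to dim signals. Up to 8 h the vehicle level had moved by 0.38 from its 1 h value, and the treated level by -2.03.

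The log2 differences of the other TFAP2B probe sets deepened in the same order of times. The probe set 1553394_a_at, whose suffix marks probes shared by transcripts of 1 gene, had mean signals under DMSO of 230.3 ± 31.1 at 1 h, 306 ± 28.9 at 4 h, 333 ± 62.0 at 8 h and 709.9 ± 54.6 at 24 h (SD, n = 3). Under MLN4924 its means were 220.2 ± 30.5, 108 ± 8.23, 59.1 ± 24.8 and 32.8 ± 6.58 at those times. Its log2 differences were -0.06, -0.34, -1.27, -2.03 and -3.52 from 1 to 24 h (SE 0.15). The treated and vehicle arrays of this probe set did not overlap from 2 h on, and at 24 h the treated arrays, at 38.8, 33.7 and 25.8, lay around the median of all values.

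The probe set 215686_x_at, whose suffix marks probes that may also bind other transcripts, was dim throughout and lay above the median of all values on 14 of 30 arrays. Its DMSO means were 47.5, 38.2, 51.9, 46.2 and 74.2 from 1 to 24 h, so unlike on 214451_at not every later time lay above 1 h. Its MLN4924 means were 42.1, 21.1, 20.8, 6.77 and 4.41. Its differences were -0.11, -0.39, -0.66, -1.02 and -1.54 from 1 to 24 h (SE 0.16), and its treated and vehicle arrays separated only from 4 h on. Over the 30 arrays, which share the treatment and the times, 214451_at correlated with 1553394_a_at at r = 0.98 and with 215686_x_at at r = 0.89. On this log2 scale the 3 probe sets differed in the size of the fall, with the dimmest showing the smallest. The scale understates changes of dim probe sets, and as a percentage of the DMSO mean signal they lay closer. At 4, 8 and 24 h the treated mean was 35.9%, 15.5% and 2.77% of DMSO on 214451_at. It was 35.2%, 17.7% and 4.62% on 1553394_a_at, and 40.1%, 14.7% and 5.95% on 215686_x_at.

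TFAP2A went the other way and later. On 204653_at the DMSO arrays gave 300.1, 251 and 317 at 1 h, and the MLN4924 arrays gave 270.4, 269.8 and 258. At 8 h they gave 213, 212 and 249 under DMSO and 254, 299 and 224 under MLN4924. At 24 h they gave 232, 224 and 217 under DMSO and 342, 373 and 355 under MLN4924. The treated and vehicle arrays overlapped at every time up to 8 h and were apart at 24 h, when all 3 treated arrays were the brightest of the 30.

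TFAP2A rose by 0.60 on the log2 scale at 24 h (SE 0.09, 95% interval 0.42 to 0.78, limma adjusted p = 5.32e-06), a 1.59-fold higher mean signal. In that comparison 24.8% of all probe sets were called, 12.2% higher and 12.6% lower, and 36.8% had groups that did not overlap. Before that, TFAP2A differed by -0.10 at 1 h, -0.03 at 2 h, -0.09 at 4 h and 0.18 at 8 h. None of these was called, and the 95% interval at 8 h ran from -0.00078 to 0.35 (limma adjusted p = 0.247). The background of calls was 0.0201% of probe sets at 1 h, 0.313% at 2 h, 2.05% at 4 h and 9.74% at 8 h.

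The rise of TFAP2A at 24 h came with a lower vehicle level. In the DMSO arrays TFAP2A fell by 0.32 from 1 to 24 h (SE 0.09, limma adjusted p = 0.0133), from 289 ± 34.3 to 225 ± 7.23 (SD, n = 3), where 11.9% of probe sets were called and 5.72% were called lower. That call needed each of 3 arrays: dropping DMSO 1 h replicate 1 gave an adjusted p of 0.0624, dropping DMSO 1 h replicate 3 gave 0.0962 and dropping DMSO 24 h replicate 3 gave 0.0549. It also failed with only the compared arrays in the fit (0.0981). In the MLN4924 arrays TFAP2A rose by 0.38 from 1 to 24 h (SE 0.09, limma adjusted p = 0.00142), from 266 ± 6.99 to 357 ± 15.5, where 21.4% were called, 10.5% higher and 10.9% lower.

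TFAP2A was not called on its other probe sets at any time. The probe set 204654_s_at had a mean signal of 24.1 over the 30 arrays and exceeded the median of all values on 2 of them, and 210669_at had a mean of 13.8 and exceeded it on 0 of them. Their differences at 24 h were 0.13 and -0.01. At this signal the pair gives no measure of TFAP2A, so the rise rests on 1 of the 3 probe sets of the gene.

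**Figure D2:**
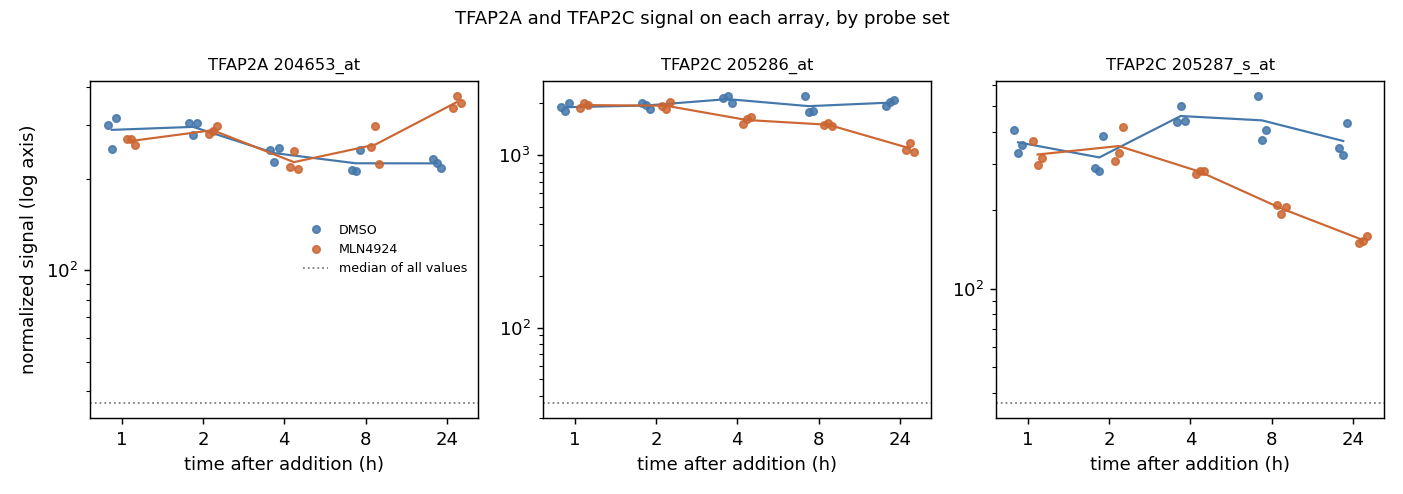
Normalized signal (log axis, its range differing between panels) of the brightest TFAP2A probe set and both TFAP2C probe sets on each array by hours after addition, DMSO in blue and MLN4924 in orange, with lines through group means and a dotted line at the median of all values, 36.6. At 24 h the MLN4924 arrays lay above the DMSO arrays for TFAP2A (342 to 373 against 217 to 232) and below them for TFAP2C on both probe sets.

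TFAP2C fell with MLN4924 from 4 h on, and its vehicle level showed no call over time. On 205286_at the 1 h arrays gave 1888, 1787 and 1998 under DMSO and 1875, 2010.2 and 1951 under MLN4924. At 4 h they gave 2144, 2186 and 1993 under DMSO and 1505, 1622 and 1655 under MLN4924. At 24 h they gave 1934, 2022 and 2078 under DMSO and 1064, 1172 and 1046 under MLN4924. Treated and vehicle arrays overlapped at 1 and 2 h and were apart at 4, 8 and 24 h.

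The TFAP2C signal on 205286_at under MLN4924 was 103% of DMSO at 1 h, 99.8% at 2 h, 75.6% at 4 h, 78.0% at 8 h and 54.4% at 24 h. TFAP2C fell by 0.40 at 4 h (SE 0.07, limma adjusted p = 0.00196), by 0.35 at 8 h (SE 0.07, adjusted p = 0.00221) and by 0.86 at 24 h (SE 0.07, 95% interval -1.01 to -0.71, adjusted p = 1.13e-09). Among all probe sets, 0.943% were called lower at 4 h, 4.64% at 8 h and 12.6% at 24 h. At 8 h that split depended on the scaling: 2786 probe sets were called higher and 2535 lower, against 4534 and 1636 with median centring and 2543 and 3550 with signals as deposited. With each array centred on its median in place of quantile normalization, TFAP2C on this probe set differed by -0.28 at 4 h (adjusted p = 0.204) and by -0.13 at 8 h (adjusted p = 0.472), so both of these calls were lost. They were also lost with only the compared arrays in the fit (adjusted p = 0.0916 at 4 h and 0.124 at 8 h), and that of 8 h with signals as deposited (adjusted p = 0.0567), while the 24 h call held in every alternative run.

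The second TFAP2C probe set, 205287_s_at, gave 436, 502 and 437 under DMSO at 4 h and 276, 282 and 284 under MLN4924. At 8 h it gave 545, 372 and 407 under DMSO and 209, 194 and 206 under MLN4924. At 24 h it gave 346, 326 and 432 under DMSO and 149.6, 152 and 159.8 under MLN4924. The treated arrays were the lower ones without overlap at each of these times, and the treated triplets were much tighter than the vehicle ones.

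TFAP2C on 205287_s_at fell by 0.65 at 4 h (SE 0.13, limma adjusted p = 0.00473), by 0.99 at 8 h (adjusted p = 7.82e-06) and by 1.10 at 24 h (adjusted p = 2.85e-07). These 3 calls held in all 18 alternatives run for this probe set, with adjusted p up to 0.0396 at 4 h. At 1 h its difference was -0.14 and at 2 h 0.13, neither called. The probe sets differed in shape, with 205287_s_at near its 24 h value by 8 h and 205286_at not. Whether the probe sets differed from each other was not tested.

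The vehicle course of TFAP2C held no call on either probe set. At 2, 4 and 8 h against 1 h under DMSO neither TFAP2A nor TFAP2C was called, where 0.211%, 0.174% and 0.703% of all probe sets were, and the widest of these differences was that of TFAP2A at 8 h, -0.32 (limma adjusted p = 0.0882). From 1 to 24 h under DMSO 205286_at differed by 0.09 (95% interval -0.06 to 0.24, limma adjusted p = 0.564) and 205287_s_at by 0.01 (95% interval -0.25 to 0.28, adjusted p = 0.984). Under MLN4924 from 1 to 24 h TFAP2C fell by 0.81 on 205286_at (adjusted p = 4.39e-09) and by 0.94 on 205287_s_at (adjusted p = 3.64e-06). For TFAP2C the treated arrays thus carried 90.2% and 98.9% of the growth of the difference, against 62.8%, 56.6% and 71.1% for TFAP2B on 214451_at, 1553394_a_at and 215686_x_at.

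**Figure D3:**
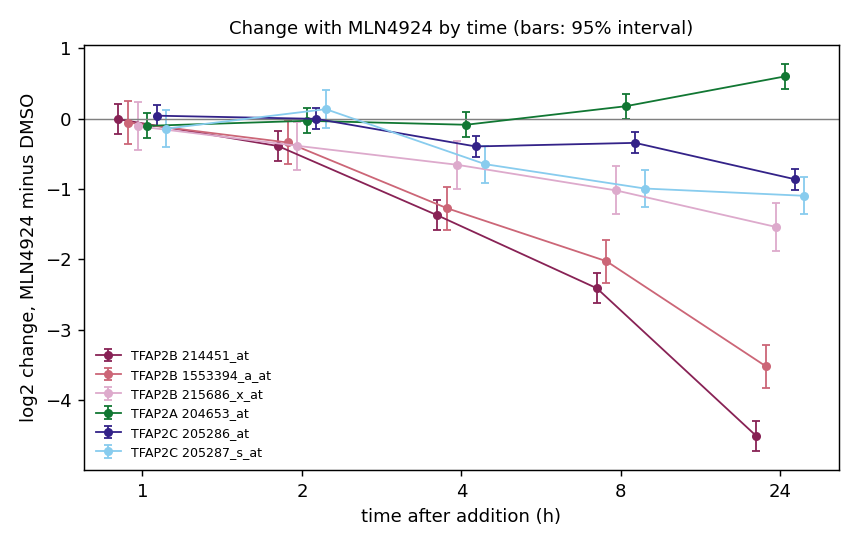
Log2 difference of MLN4924 minus DMSO by hours after addition for 6 of the 8 probe sets, leaving out the 2 dim TFAP2A ones, with bars of the 95% interval from the fit. The 3 TFAP2B probe sets lay at -4.51, -3.52 and -1.54 at 24 h, the TFAP2C probe sets at -0.86 and -1.10, and TFAP2A at 0.60.

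The change of the MLN4924 effect from 8 to 24 h was tested as a difference of differences for TFAP2A and TFAP2C. TFAP2A on 204653_at moved by 0.42 (SE 0.12, limma adjusted p = 0.0192), where 12.4% of all probe sets were called, 5.86% with a higher and 6.56% with a lower effect. TFAP2C on 205286_at moved by -0.52 (SE 0.10, adjusted p = 0.000877) and on 205287_s_at by -0.10 (SE 0.18, adjusted p = 0.831). For the steps from 1 to 2 h, 2 to 4 h and 4 to 8 h no TFAP2A or TFAP2C probe set was called, against 0.0586%, 0.223% and 0.696% of all probe sets. The largest of these early steps was that of 205287_s_at from 2 to 4 h, -0.78 (adjusted p = 0.0864). TFAP2B on 214451_at moved by -0.38, -0.99, -1.04 and -2.10 over the 4 steps (SE 0.14), given without a test.

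The remaining genes of the family, TFAP2D and TFAP2E, held no call. TFAP2E, known from the olfactory bulb, had a mean signal of 84.1. TFAP2D had a mean signal of 11.5, under the median of all values on every array. The antisense gene TFAP2A-AS1, next to TFAP2A, had 2 dim probe sets with means of 19.9 and 36.1, and neither was called.

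The cofactors and regulators of AP-2 proteins were read with 1 probe set per gene, the one with the highest mean. At 24 h 1 of the 11 measured genes rose and 4 fell, with a median of -0.14, while over all 19775 genes 3007 rose and 3410 fell (32.5% called) around a median of 0.0027. CITED2, a co-activator that links AP-2 proteins to CBP and p300, rose from 134 ± 16.6 under DMSO to 339 ± 55.9 under MLN4924 (SD, n = 3), by 1.15 (SE 0.12, limma adjusted p = 7.03e-08). CITED4, a related co-activator, fell by 0.82 (adjusted p = 0.000578), so the pair went opposite ways at 24 h. Earlier CITED2 had differed by -0.46 at 4 h and -0.36 at 8 h, neither called.

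KCTD15, a BTB protein that inhibits the AP-2 activation domain, fell from 469 ± 14.9 to 233 ± 9.78, by 0.92 (SE 0.10, limma adjusted p = 1.01e-07). The related inhibitor KCTD1 differed by -0.14 and was not called (adjusted p = 0.432). YEATS4, a chromatin reader reported to bind AP-2 beta, fell by 0.59 (adjusted p = 0.00015). CREBBP, the gene of CBP, fell by 0.37 (adjusted p = 0.0204), a call that was lost with median centring (0.0761), with array brightness as a covariate (0.29), with joint adjustment over the times (0.0591) and when 1 array of 24 h was dropped, be it DMSO replicate 1 (0.073) or 2 (0.0603) or MLN4924 replicate 2 (0.0557) or 3 (0.0522). EP300, CITED1, WWOX, TFAP2D and TFAP2E were not called. At 8 h CITED4 alone of this list was called, lower by 0.95, where 13.6% of genes were called.

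Of 22 other transcription factors of the neural crest, 3 rose and 11 fell at 24 h, with a median of -0.12, beside 32.5% of all genes called (3007 higher and 3410 lower). SOX5, an SRY-related factor of melanoblasts, fell most, from 3243 ± 136 to 384 ± 13.7 (SD, n = 3), by 2.98 (SE 0.07, limma adjusted p = 8.91e-20). SOX10, which drives the melanocyte and glial lineages, fell from 873 ± 87.6 to 396 ± 29.3, by 1.08 (SE 0.19, adjusted p = 8.09e-05). It was already lower by 1.63 at 8 h (adjusted p = 1.5e-06), when 4 of the 22 rose and 6 fell, beside 13.6% of all genes called (1484 higher and 1203 lower).

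LMO4, a LIM-domain cofactor, fell by 1.40 (limma adjusted p = 4.01e-10). TWIST1, a driver of mesenchymal change, fell by 1.37 (adjusted p = 2.05e-10), and ZIC1, a factor of the neural plate border, by 1.10 (adjusted p = 5.26e-07). ETS1 went the other way, from 570.3 ± 18.0 to 2266 ± 145, a rise of 1.93 (adjusted p = 1.33e-13). MYCN and MSX1 were the other 2 that rose, MYCN on a dim probe set with a mean signal of 27.9, under the median of all values. Among genes with a mean signal above the median of all values that were not called, SOX9, ID2, ID3, SNAI1 and MSX2 lay between -0.05 and 0.50. SNAI1 lay barely above that median, with a mean signal of 38.1. At 4 h 1 of the 22 rose and 4 fell, where 2.92% of genes were called.

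Genes described as AP-2 targets in other settings split at 24 h, with 3 of 23 higher, 6 lower, and a median of -0.06, a share close to the 32.5% of all genes called. ERBB3, a receptor of neuregulin, fell from 3610.3 ± 272 to 372 ± 25.2 (SD, n = 3), by 3.17 (SE 0.09, limma adjusted p = 9.39e-19), and had fallen by 0.67 at 4 h and 1.68 at 8 h. IGFBP5, a binding protein of insulin-like growth factors, went from 714 ± 69.9 to 12 ± 5.67, under the median of all values, a fall of 4.09 on this scale (adjusted p = 1.21e-17). CDKN1A, the gene of the cell-cycle inhibitor p21, rose from 309 ± 48.3 to 3398 ± 139, by 3.34 (adjusted p = 1.72e-15). MMP2, IGFBP3 and TGFA fell by 1.60, 1.22 and 0.92. ERBB2, IGF1R, MCAM, APOE and BCL2 were not called. Other regulators act on these genes as well, and the part of AP-2 factors in any of these changes was not tested.

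**Figure D4:**
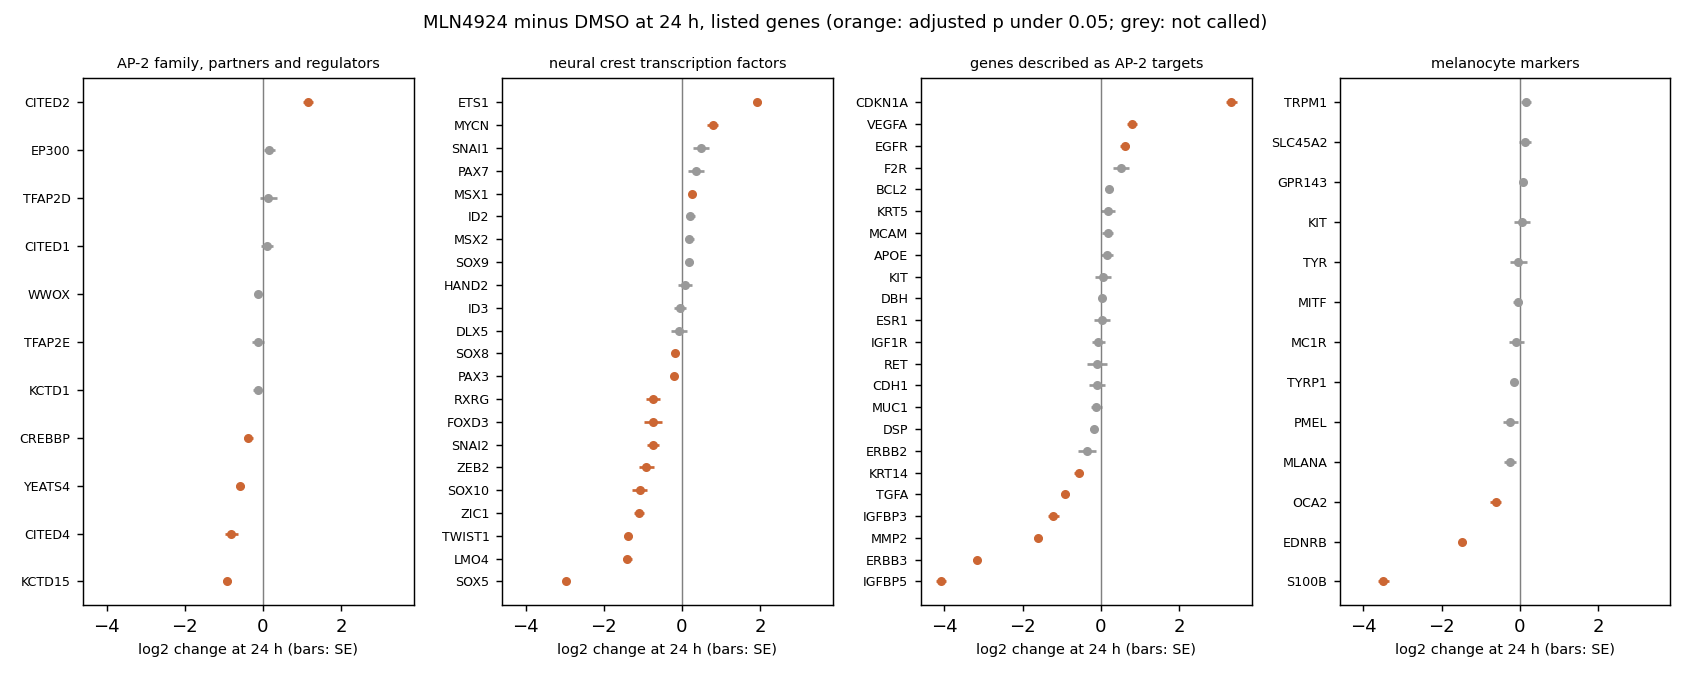
Log2 difference of MLN4924 minus DMSO at 24 h for every measured gene of 4 lists, ordered by size, with bars of 1 SE, orange where the adjusted p is under 0.05 and grey where it is not. The widest falls were those of IGFBP5 (-4.09), S100B (-3.49), ERBB3 (-3.17) and SOX5 (-2.98).

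The labelled cell type was checked against melanocyte markers. Of 13 measured, 7 had mean signals above the median of all values, which were EDNRB at 431, MITF at 300.5, S100B at 297, OCA2 at 69.1, MC1R at 57.9, SLC45A2 at 50.9 and TYR at 49.7. MLANA, PMEL, TYRP1, KIT, GPR143 and TRPM1 lay under it, and no marker had a deposited 0 on any array. MITF, the master factor of melanocytes, differed by -0.06 at 24 h (limma adjusted p = 0.81).

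The summed signal of the 13 melanocyte markers was 1107 to 1262 in the DMSO arrays at 1 h, 2434 to 2492 in the DMSO arrays at 24 h and 917 to 1002 in the MLN4924 arrays at 24 h. At 8 h it was 1269 to 1402 in the DMSO arrays and 1130.1 to 1173 in the MLN4924 arrays, so the treated arrays were the lower ones. The MLN4924 arrays at 1 h gave 1121 to 1326. S100B and EDNRB, with means of 981 and 780.2, made up most of the DMSO sum at 24 h. The sums thus do not speak for the 13 markers as a group. At 24 h 0 of the 13 rose, 3 fell and 10 were not called, against 32.5% of all genes called. The list median was -0.09. S100B fell by 3.49 (limma adjusted p = 5.08e-15), from 981 ± 38.3 to 61.4 ± 29.3 (SD, n = 3), EDNRB by 1.47 (adjusted p = 3.5e-12), from 780.2 ± 80.5 to 260.1 ± 20.9, and OCA2 by 0.62 (adjusted p = 0.0019). At 8 h 1 of the 13 rose and 2 fell, where 13.6% of all genes were called. S100B differed by -1.23 and OCA2 by -0.56 at that time. EDNRB was higher by 0.38 at 8 h (limma adjusted p = 0.006), a call lost with only the compared arrays in the fit (0.0606) and with array brightness as a covariate (0.115). The part of these markers in the TFAP2B difference was not tested.

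Markers of other cell types had 1 of 6 higher and 1 lower for keratinocytes and epithelium, 0 of 7 higher and 2 lower for fibroblasts, and 1 of 6 higher and 0 lower for blood and endothelium at 24 h, where 32.5% of all genes were called. The higher call among keratinocyte markers was lost in 2 of 19 alternatives, 1 of them without DMSO 24 h replicate 2, and that among blood and endothelial markers in 4 of 19, 1 of them without MLN4924 24 h replicate 2. The medians of these lists were 0.14, -0.29 and -0.16. The summed fibroblast markers were at 457 to 516 in the DMSO arrays of 24 h and at 317 to 359 in the MLN4924 arrays, and their part in the result was not tested. Mean signals lay under the median of all values for PTPRC (10.9), CDH5 (9.21), VWF (8.77), EPCAM (10.7), KRT1 (23.0) and DSG3 (14.6). They lay above it for HBB (141), PECAM1 (82.9), CD3E (44.3), KRT10 (2257), KRT14 (125) and KRT5 (45.5), and for 4 of the 7 fibroblast markers. The probe sets of HBB and KRT10, and of COL1A1 and DCN among the fibroblast markers, have the suffix _x_at. It marks probes that may also bind other transcripts.

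The genes whose signal over the 30 arrays was most like that of TFAP2B were found among 12211 genes with a probe set above the median of all values, by Pearson correlation of log2 signal. They were ANK3 (r = 0.99), a membrane-cytoskeleton adaptor, ARL6IP5 (r = 0.98), METTL23 (r = 0.98), DHRS3 (r = 0.98), a retinal reductase, INPP5F (r = 0.98), a phosphoinositide phosphatase, and SPATS2L (r = 0.98). The arrays share treatment and time, so these values describe likeness only. Within the 15 DMSO arrays alone, r lay between 0.92 for SPATS2L and 0.97 for ARL6IP5.

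TFAP2B was picked for its fall, and 214451_at held place 1 by fall at 24 h, so every other probe set fell by less then. Each of the 6 moved by less than TFAP2B on this scale, and nothing is read from that. From 1 to 24 h under DMSO they moved by 0.48 (METTL23) to 0.93 (INPP5F), against 1.67 for TFAP2B. Between MLN4924 and DMSO at 24 h they differed by -1.30 (METTL23) to -2.12 (INPP5F), against -4.51 for TFAP2B, and at 4 h by -0.23 (SPATS2L) to -0.57 (INPP5F), against -1.37.

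**Figure D5:**
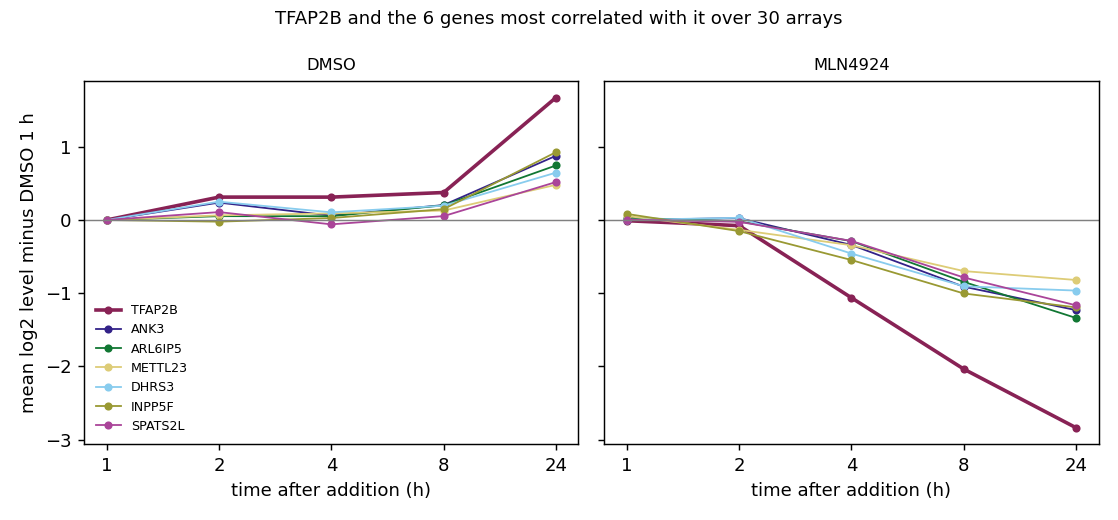
Mean log2 signal of TFAP2B and the 6 genes most correlated with it over 30 arrays, each minus its own DMSO 1 h mean, by hours after addition of DMSO (left) or MLN4924 (right), with points at group means of 3 arrays. TFAP2B reached 1.67 under DMSO and -2.84 under MLN4924 at 24 h, with the other genes between it and 0.

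For TFAP2A the most alike genes were ZNF121 (r = 0.86), a zinc-finger gene, SRRM1 (r = 0.86), a splicing co-activator, and CCNL1 (r = 0.85), a cyclin of the splicing machinery. They differed between MLN4924 and DMSO by 0.70, 0.72 and 0.79 at 24 h and by -0.17, -0.30 and -0.23 from 1 to 24 h under DMSO, each in the direction of TFAP2A. For TFAP2C they were FLRT3 (r = 0.95), a cell-adhesion protein, TXNDC15 (r = 0.94) and TNS3 (r = 0.94), a focal-adhesion protein, which differed by -2.47, -1.001 and -1.53 at 24 h. Within the 15 DMSO arrays the correlations with TFAP2C were 0.42 (FLRT3), 0.31 (TXNDC15) and 0.29 (TNS3), far under those over all 30 arrays.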

How the data were processed

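RNA of 30 A375 samples was measured on Affymetrix arrays, 10 groups of 3. The deposited values are linear signal intensities, 1 per probe set, made by the authors with Affymetrix Expression Console per the submitters' processing notes. Which version and summary method they used is not given in the sources used here. Every array had the same 2% trimmed mean of 150.02, so the deposited intensities had been scaled to a common mean. Here they were quantile normalized, and log2(signal + 32) was fitted with limma 3.58.1 (R 4.3.3), 1 mean per group over all 30 arrays, which share 1 estimate of the spread. Adjusted p-values were taken per comparison over 54613 probe sets, leaving out 62 controls, and the call threshold was 0.05. The number of arrays limits the precision.

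Probe sets were named from the platform annotation: 41097 had 1 symbol, 1801 several and 11777 none, and members had exactly 1. The members, the gene lists and the tests were chosen with earlier results of these data known. Text names all TFAP2A, TFAP2B and TFAP2C probe sets, up to 6 called genes per list with the largest change at 24 h and the genes most correlated with each member; other list genes are given by name, count or range, and the markers and list genes named beyond the rule were chosen after their values were seen. Some genes of the lists are not reported here. The fit was tested on simulated data. Alternatives changed the scaling, the pseudocount, the filter on dim probe sets, the arrays fitted, the covariates, the adjustment and the replicates.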

Additional observations from a re-analysis of the deposited data

Results flagged for a closer look

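The MLN4924 effect on TFAP2A (204653_at) differed between time points, being larger at 24 h than at 8 h by 0.42 on the log2 scale (limma adjusted p = 0.0192, n = 3 per group). This call was lost with median centring (0.40, adjusted p = 0.0506), with only the compared arrays in the fit (0.0773), with adjustment over the comparisons together (0.059), and on dropping any 1 of 3 arrays, which were replicate 3 of DMSO 8 h (0.36, 0.0675), replicate 3 of MLN4924 8 h (0.34, 0.0738) and replicate 2 of MLN4924 24 h (0.39, 0.05).

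The MLN4924 effect on TFAP2C (205286_at) also differed between time points, with a deeper fall at 24 h than at 8 h, a change of -0.52 (limma adjusted p = 0.000877, n = 3 per group), and this call held in every alternative run. The other TFAP2C probe set, 205287_s_at, was not called for this change (-0.10, SE 0.18, limma adjusted p = 0.831).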

How the results depend on the processing

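No direct MLN4924 difference of TFAP2A, TFAP2B or TFAP2C that was called or described as a fall changed sign in any alternative run, and the TFAP2A rise at 24 h lay between 0.54 and 0.67. TFAP2B on 214451_at with pseudocounts of 1, 8 and 64 in place of 32 differed by -2.70, -2.63 and -2.18 at 8 h and by -5.16, -4.98 and -4.07 at 24 h; array brightness as a covariate gave -4.60 at 24 h, and median centring gave 0.054 at 1 h. TFAP2C on 205286_at lost its call with median centring (-0.28 at 4 h, -0.13 at 8 h), with only the compared arrays in the fit (adjusted p = 0.0916 for -0.40 at 4 h, 0.124 for -0.35 at 8 h) and, at 8 h, with signals as deposited (-0.24, adjusted p = 0.0567). Dim probe sets had signals near or under the median of all values, which limits TFAP2A to 1 probe set.

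The counts of probe sets called, MLN4924 minus DMSO, 1 h (11), 2 h (171), 4 h (1119), 8 h (5321) and 24 h (13552), moved as follows. With 1 probe set per gene they were 1, 110, 673, 3002 and 6723, where fewer features were tested. With only the arrays of the groups compared they were 0, 1, 387 and 2134 at 1 to 8 h, where fewer arrays entered the fit. With adjustment over the comparisons together they were 275, 859 and 1705 at 1, 2 and 4 h. A pseudocount of 1 gave 7 at 1 h and 103 at 2 h, array brightness as a covariate 6 at 1 h and 2913 at 8 h, the ACTB ratio as a covariate 77 at 2 h, and leaving out both DMSO 2 h arrays of high ACTB ratio 83. Leaving out 1 array gave 1 to 12 at 1 h, 84 to 754 at 2 h, 731 to 824 at 4 h, 3954 to 4595 at 8 h and 11856 to 12469 at 24 h. The count at 2 h was 754 without DMSO 2 h replicate 3 and 89, 84 and 108 without DMSO 2 h replicate 1, DMSO 2 h replicate 2 and MLN4924 2 h replicate 3; at 4 h it was 731 without DMSO 4 h replicate 1; at 1 h it was 2, 6, 1 and 6 without DMSO 1 h replicates 1 and 3 and MLN4924 1 h replicates 1 and 2. Apart from the stated constructions, the cause was not tested.

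Replicate numbers are shared by the groups, but same-numbered arrays deviated together no more than others (median r of 0.0070 against 0.00020, with 11 of 30 arrays closest to their own number). With the replicate block, TFAP2A at 24 h kept 0.60 (limma adjusted p = 1.57e-05), TFAP2C on 205286_at kept -0.86 (7.39e-09), and 13496 probe sets were called at 24 h. CITED2 at 4 h (-0.46) was called with the block (limma adjusted p = 0.0461) and not in the fit reported above. Its call status at 4 h changed in 8 of 19 alternatives, so it hung on the setting. No other call tried changed with the block.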
